A study of Equus caballus with 4 samples.

Results

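Genes of cholesterol and fatty acid synthesis were followed on 4 two-color arrays carrying RNA from equine satellite cells (ESC), muscle stem cells able to fuse into myotubes. The members were 34 genes of the mevalonate steps, the sterol steps, the control of both, and fatty acid synthesis, listed as 36 symbols because 2 of the genes have an older symbol. They were found by the gene name printed for each non-control probe in the scanner files. This gave 30 genes with 51 probes, out of 24998 names and 43603 probes on the array. The other 4 genes, *IDI1*, *FDPS*, *CYP51A1* and *FADS1*, carried only an accession or a provisional name, and their 9 probes were found through the description column. They are given beside the rest and counted apart.

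The cells came from the semitendinosus muscle of stallions aged 6 months and were studied on day 3 of differentiation. For 24 h, the HMB-treated group received 50 µM HMB, which the body makes from the amino acid leucine, and the control (CTRL) received none. Cells of both groups were damaged with 3 mM H2O2 in the last 1 h, so the comparison shows HMB against the same oxidative damage and not against undamaged cells. HMB-treated RNA was always labeled with Cy5 and control RNA with Cy3, all 4 arrays lay on 1 slide, and therefore treatment and dye cannot be told apart. In the labels the control is replicate 1 throughout, and the culture with the best scores was selected, so n = 4 need not stand for 4 horses and the p-values measure only the spread between these arrays.

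Cholesterol is built from acetyl-CoA. A chain of enzymes makes HMG-CoA and mevalonate, then isoprenoid units, then squalene, and the last part of the pathway turns the first ring-shaped sterol, lanosterol, into cholesterol. HMB can be turned into HMG-CoA in the cell, which places it at the entry of this pathway. The transcription factors SREBP1 and SREBP2 switch on most of these genes when membrane sterol is low. SCAP carries them out of the endoplasmic reticulum, and the INSIG proteins hold SCAP back when sterol is plentiful. Fatty acid synthesis starts from the same acetyl-CoA and is under the same kind of control.

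The values are log2 ratios of Cy5 over Cy3 as normalized in the deposited files, so a positive value means a higher level with HMB. A probe entered the test if the same channel, Cy5 or Cy3 or both, stood well above background on all 4 arrays. In all, 24650 probes did, and they carried 13969 gene names. The ratios of the tested probes of a gene were averaged. A gene counted as called where limma gave an adjusted p (Benjamini-Hochberg, over all 13969 rows) no higher than 0.05 and the fold change (FC) reached 1.3, which is 0.38 on the log2 scale. By this rule 4046 of the 13969 genes were called, or 29.0%, 1748 of them higher (12.5%) and 2298 lower (16.5%) with HMB. Any pair of arrays correlated with a Pearson's r of 0.837 to 0.920 across probes, which are not independent replicates. Between 55.2% and 61.8% of the spots were well above background in either channel.

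Markers were checked first. Of 7 muscle lineage markers on the array, 7 were tested and 5 were lower with HMB, including *MYF5* (−1.63 ± 0.18, SD, n = 4) and *MYH3* (−1.38 ± 0.33). The markers not called were *MYOD1* (0.10 ± 0.19) and *MYOG* (0.03 ± 0.23). The summed signal of this list was 61476 to 97776 in Cy5 and 162740 to 183270 in Cy3. Of 8 fibroblast markers on the array, 7 were tested and 5 were higher, with *PDGFRA* at 1.82 ± 0.45, although the isolation let fibroblasts adhere and took the supernatant on. *COL1A2* (−0.18 ± 0.40) and *COL3A1* (0.32 ± 0.29) were tested and not called. The summed signal of the fibroblast list was 146530 to 232250 in Cy5 and 148810 to 175570 in Cy3. Of 8 adipocyte markers on the array, 1 was tested, *CIDEA* at −0.69 ± 0.14, and *ADIPOQ*, *FABP4*, *CD36*, *LPL* and *PPARG* were above background on at most 1 array in either channel. Of 5 endothelial markers, 0 were tested. Of 6 leukocyte markers, 2 were tested and 1 was higher (*CD68*, 0.88 ± 0.20). The part of these markers in the results that follow was not tested, and fewer cells of a type and less RNA per cell cannot be told apart in bulk samples.

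Most genes of cholesterol and fatty acid synthesis were expressed and differed little between the groups. Of the 30 genes found by symbol, 24 were tested, and 4 of these were called (16.7%, against 29.0% of all genes), with 0 higher and 4 lower. The lower genes were *MVK*, *LSS*, *TM7SF2* and *ACSS2*. Of these, *LSS* entered the test through its Cy3 signal alone. With both channels required to be above background, 3 of 23 members were called, against 25.9% of all genes. With the genes found by description, 28 were tested and 5 were called (17.9%), since *FADS1* was higher. The median log2 ratio of the 24 genes was 0.03, and their medians on the single arrays were 0.04, −0.10, 0.08 and 0.09 from replicate 1 to replicate 4. The median of all genes tested was −0.06. In 23 of the 28 genes the mean lay within the FC threshold, compared with 9779 of the 13969 genes (70.0%), and in 15 of the 28 the whole 95% confidence interval did. The median size of the ratio, whatever its sign, was 0.16 for the 28 genes and 0.23 for all genes.

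**Figure D1:**
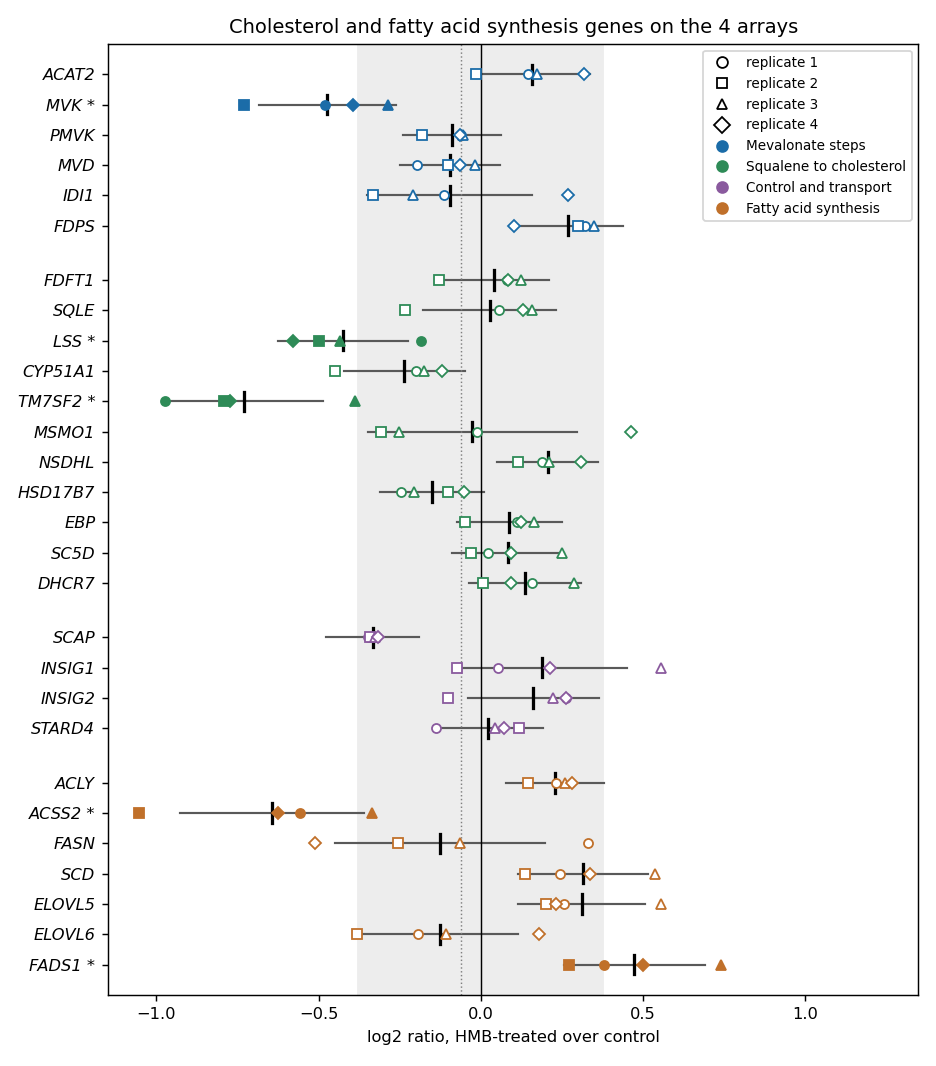
Log2 ratio (horizontal axis) of each of the 28 tested member genes (vertical axis, in pathway order, colored by branch), with 1 symbol shape per replicate array, the mean as a black bar and limma's 95% confidence interval as a line. Filled symbols and an asterisk mark the 5 called genes, the gray band is the range within the FC threshold of 1.3, and the dotted line is the median of all genes (−0.06). *TM7SF2*, *ACSS2*, *MVK* and *LSS* lie to the left of 0 on all 4 arrays and *FADS1* to the right.

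The direction of small ratios depended on how the arrays were brought to one scale. Background-subtracted signals were used for this without the lowess step. Centered on the bulk of the genes, they gave a median of all genes of −0.016 and the same 4 members called. Centered on the spike-in RNA of each array, they gave a median of −0.68, and 82.4% of all genes and 22 of the 24 member genes were called, all 22 lower. The median of the 24 genes was then −0.60. Relative to the median of all genes, it lay 0.08 higher with this scaling and 0.09 higher on the deposited scale. All ratios are therefore given relative to the bulk of the genes. Of the called genes, 43.2% were higher on the deposited scale, 48.7% with the background-subtracted signals centered on the bulk of the genes, 57.1% with normexp background correction, 62.1% without background subtraction and 4.35% with spike-in centering.

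**Figure D2:**
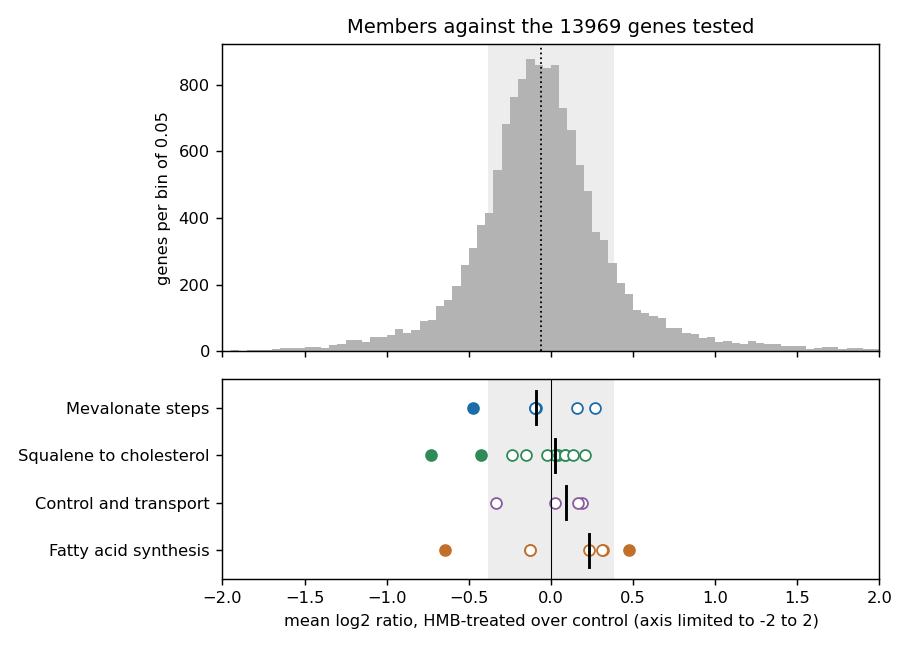
Upper panel, number of genes (vertical axis) by mean log2 ratio (horizontal axis, bins of 0.05) for the 13969 genes tested, with their median of −0.06 as a dotted line. Lower panel, the tested members by branch on the same axis, with called genes filled and branch medians as black bars (−0.09, 0.03, 0.09 and 0.23 from top to bottom); the gray band is the range within the FC threshold.

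In the mevalonate steps, 6 of 7 genes were tested and 1 was called, lower (16.7%, against 29.0% of all genes), with a median of −0.09. *MVK*, mevalonate kinase, had ratios of −0.48, −0.73, −0.29 and −0.39 on replicates 1 to 4. It was thus lower on every array and lowest on replicate 2, with a mean of −0.47 ± 0.19 (SD, n = 4), a 1.39-fold fall with a limma adjusted p of 0.00609. Its probe covers 3859 bases of the genome for its 60 bases, so it spans a splice junction. The call was not made with the methods' t-test (adjusted p = 0.0522), with limma's treat for an FC above 1.3 (adjusted p = 0.742), with normexp (−0.15) or without background subtraction (−0.23).

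The enzymes on either side of *MVK* were not called. *ACAT2*, the thiolase that joins the first acetyl-CoA units, had a ratio of 0.16 (95% confidence interval −0.02 to 0.34). *PMVK* and *MVD*, the next kinase and the decarboxylase, had −0.09 (−0.24 to 0.06) and −0.10 (−0.25 to 0.06), and both were below 0 on 4 of 4 arrays. *IDI1*, which interconverts the isoprenoid units, had −0.11, −0.33, −0.21 and 0.27, so that replicate 4 lay on the other side of 0. *FDPS*, which makes farnesyl diphosphate, was above 0 on every array at 0.27 ± 0.11 (SD, n = 4). Its limma adjusted p was 0.0214, but its FC of 1.21 was under the threshold.

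*HMGCS1*, which makes HMG-CoA, was too dim to test. Its probe was well above background on 1 array in Cy5 and on 0 in Cy3. The ratios were −0.24, 0.54, 0.72 and 0.77, with replicate 1 on the other side of 0, and no fold is given because both channels were near background.

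In the steps from squalene to cholesterol, 11 of 11 genes were tested and 2 were called, both lower (18.2%, against 29.0% of all genes). The median was 0.03. *TM7SF2*, a reductase that acts on the sterol ring just after the step of *CYP51A1*, had the largest change among the tested members. Its ratios were −0.97, −0.79, −0.39 and −0.77 on replicates 1 to 4. It was lower on every array, least so on replicate 3, with a mean of −0.73 ± 0.25 (SD, n = 4), a 1.66-fold fall with a limma adjusted p of 0.00206. Among all genes tested, 5.05% had a ratio as low or lower. The log2 signal of the probe was 7.76 to 8.59 in Cy5 and 8.54 to 8.97 in Cy3, well above background in both. The call was made in 17 of 18 alternative settings, and the exception was treat (adjusted p = 0.0542). Of the 18, the authors' table and the names added from a reference table left the ratios unchanged and could not alter a call.

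*LSS*, which closes the ring system to make lanosterol, had ratios of −0.19, −0.50, −0.43 and −0.58. Its probe was well above background on 4 arrays in Cy3 but on 0 in Cy5. The mean ratio was −0.42, a 1.34-fold fall, and the limma adjusted p of 0.00745 rests on the same dim Cy5 values. A bound against a floor in Cy5 gave the same 1.34-fold, because the floor was the signal of the probe itself. The fall is therefore not a minimum. Here the floor is, for each array, the higher of the lowest signal among the probes well above background in the dim channel and the signal of the probe itself, after lowess and Aquantile scaling, and such bounds are open to dye bias because no dyes were swapped. The gene was not called without replicate 4 (−0.37, adjusted p = 0.0293), nor with normexp (−0.04), without background subtraction (−0.07), with the methods' t-test (adjusted p = 0.0522) or with treat, and it was not tested when both channels had to be above background.

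The probes of the called genes are shown by their first 30 of 60 bases, so that the stretch of each transcript behind a call can be seen. The files give no exon, so whether a probe lies in coding or untranslated sequence is not stated. Coordinates are those in the files, on EquCab1. *MVK* was read at chr8:11441389-11445247 (minus strand), *LSS* at chr26:598081-598140 (plus), *TM7SF2* at chr12:15595318-15595377 (plus) and *ACSS2* at chr22:25788913-25789595 (plus). For *FADS1*, the outermost of 5 probes are given, at chr12:12077207-12077266 and chr12:12077211-12077305 (minus), with the bases in capitals that both share.
MVK: atttcctccttaaagaggccaccggctctg
LSS: ttcaacaagtcctgtgccatccactacacg
TM7SF2: actttttcctgggacgggagctcaacccgc
ACSS2: aagaagcagattagagaaaagattggcccc
FADS1, first probe: TTCCTTTTTCTAGTTTGGCAGATGCAGTAG
FADS1, last probe: gagtTTCCTTTTTCTAGTTTGGCAGATGCA
The last pair is offset by 4 bases and has 56 bases in common, so the *FADS1* probes are repeat readings of the same stretch and not independent ones.

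The remaining 9 sterol genes were not called. *FDFT1*, squalene synthase, had a ratio of 0.04 (95% confidence interval −0.13 to 0.21), and *SQLE*, which oxidizes squalene and is a control point of the pathway, had 0.03 (−0.18 to 0.23). *CYP51A1*, the first enzyme to act on lanosterol, was below 0 on 4 of 4 arrays at −0.24 ± 0.15 (SD, n = 4). Its limma adjusted p was 0.0459, with an FC of 1.18 under the threshold. *NSDHL*, a dehydrogenase of the demethylation steps, was above 0 on 4 of 4 arrays at 0.21 ± 0.08 (limma adjusted p = 0.0405, FC 1.15). *TM7SF2* thus lay at −0.73 while *CYP51A1*, the step before it, lay at −0.24 and *MSMO1*, the step after it, at −0.03.

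*MSMO1*, which removes methyl groups from the ring, varied more between arrays than between groups, with −0.01, −0.31, −0.25 and 0.46. Its mean was −0.03 with a 95% confidence interval of −0.35 to 0.30. *HSD17B7*, the reductase that completes that step, was below 0 on all 4 arrays at −0.15 (−0.31 to 0.01). The last enzymes of the pathway all had small positive means, with *EBP* at 0.09 (−0.07 to 0.25), *SC5D* at 0.08 (−0.09 to 0.26) and *DHCR7* at 0.14 (−0.04 to 0.31).

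Among the genes of control and transport, 4 of 7 were tested and 0 were called with limma (1 at an unadjusted p under 0.05, *SCAP*, and 0 with treat or the methods' t-test), with a median of 0.09. *SCAP* had ratios of −0.35, −0.34, −0.33 and −0.32. These were the closest of any member, with a mean of −0.33 ± 0.01 (SD, n = 4) and a limma adjusted p of 0.00517, but the FC of 1.26 was under the threshold. All 5 of its probes lay between −0.36 and −0.32, though their starts are at most 4 bases apart.

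Neither *INSIG1*, itself a target of SREBP, nor *INSIG2* was called. *INSIG1* had 0.05, −0.07, 0.56 and 0.21, and *INSIG2* had 0.26, −0.10, 0.22 and 0.26. In both, replicate 2 was the lowest and the only array below 0, and their means were 0.19 (95% confidence interval −0.08 to 0.45) and 0.16 (−0.04 to 0.36). *STARD4*, which moves sterol between membranes, had 0.02 (−0.15 to 0.19).

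The SREBP genes could not be tested. The probe of *SREBF1* was well above background on 1 array in Cy5 and 1 in Cy3, and that of *SREBF2* on 2 and 1. *ABCA1*, the pump that exports cholesterol from the cell and is switched on by LXR, the receptor for oxidized sterols, was above background on 2 arrays in Cy5 and on 0 in Cy3. Its ratios were 1.10, 2.93, 2.87 and 1.83, all above 0. No fold is given, because Cy5 was above background on only 2 arrays and Cy3 on none. It was called only when the filter on dim probes was left out, as was *FADS2*.

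In fatty acid synthesis, 7 of 9 genes were tested, with 1 called higher and 1 called lower (28.6%, against 29.0% of all genes). The median was 0.23 on the deposited scale and −0.49 with spike-in centering (0.20 above the median of all genes on that scale). *ACSS2*, which makes acetyl-CoA from acetate, had ratios of −0.56, −1.05, −0.34 and −0.63. It was lower on every array and lowest on replicate 2, with a mean of −0.64 ± 0.30 (SD, n = 4), a 1.56-fold fall with a limma adjusted p of 0.00587. The probe covers 683 bases of the genome and thus a splice junction. The gene was not called with normexp (−0.30), without background subtraction (−0.34), without the filter on dim probes (adjusted p = 0.0501), with the methods' t-test (0.0662) or with treat (0.206).

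*ACLY*, which makes acetyl-CoA from citrate, pointed the other way at 0.23 ± 0.06 (SD, n = 4). It was above 0 on 4 of 4 arrays with a limma adjusted p of 0.0246, but its FC of 1.17 was under the threshold. *FASN*, the synthase that builds the chain, varied widely, with 0.33, −0.26, −0.06 and −0.51 and a mean of −0.13 (95% confidence interval −0.45 to 0.20). *ACACA*, the carboxylase before it, was above background on 0 arrays in Cy5 and 1 in Cy3 and was not tested.

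Both tested desaturases among the members, *FADS1* and *SCD*, and 1 of the 2 tested elongases lay above 0. *FADS1*, which makes polyunsaturated fatty acids together with *FADS2*, had ratios of 0.38, 0.27, 0.74 and 0.50. It was higher on every array and highest on replicate 3, with a mean of 0.47 ± 0.20 (SD, n = 4), a 1.39-fold rise (limma adjusted p = 0.0069). Each of its 5 overlapping probes was called, from 0.40 to 0.52. The rise was not called with normexp (0.24), with the methods' t-test (adjusted p = 0.0575) or with treat (0.764), and the ratio turned to −0.17 with spike-in centering. *FADS2*, its neighbor on chromosome 12, was above background on at most 1 array in each channel, and its 5 probes had untested means of 0.76 to 1.55 with wide spread.

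*SCD*, which makes monounsaturated fatty acids, had 0.25, 0.14, 0.54 and 0.34, and *ELOVL5*, which lengthens polyunsaturated ones, had 0.26, 0.20, 0.56 and 0.23. Both were above 0 on all arrays and highest on replicate 3. Their means were 0.31 ± 0.17 and 0.31 ± 0.16 (SD, n = 4), with limma adjusted p of 0.0219 and 0.0215 and FC of 1.24 each, under the threshold. *ELOVL6*, which lengthens saturated chains, had −0.13 with a 95% confidence interval of −0.36 to 0.11. In all, 7 member genes passed the adjusted p but not the FC, namely *FDPS*, *NSDHL*, *ACLY*, *SCD* and *ELOVL5* above 0 and *CYP51A1* and *SCAP* below.

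Where a gene had several probes, these gave like values. The largest difference between tested probes of a member was 0.15, in *INSIG2*. Its probes start 1208 bases apart in the genome, because 1 of them spans a splice junction. In the transcript they start at bases 769 and 809, so they overlap and are not independent readings. Of the 41 tested probes found by symbol, 4 were called (9.76%), and of the 50 with those found by description, 9 were called (18.0%, of which 5 belong to *FADS1*), compared with 28.6% of all probes tested. The probes of *SCAP*, *INSIG1*, *ACLY*, *FADS1* and *FADS2* are shifted against each other by 10 bases or less, so their closeness is that of repeat readings.

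**Figure D3:**
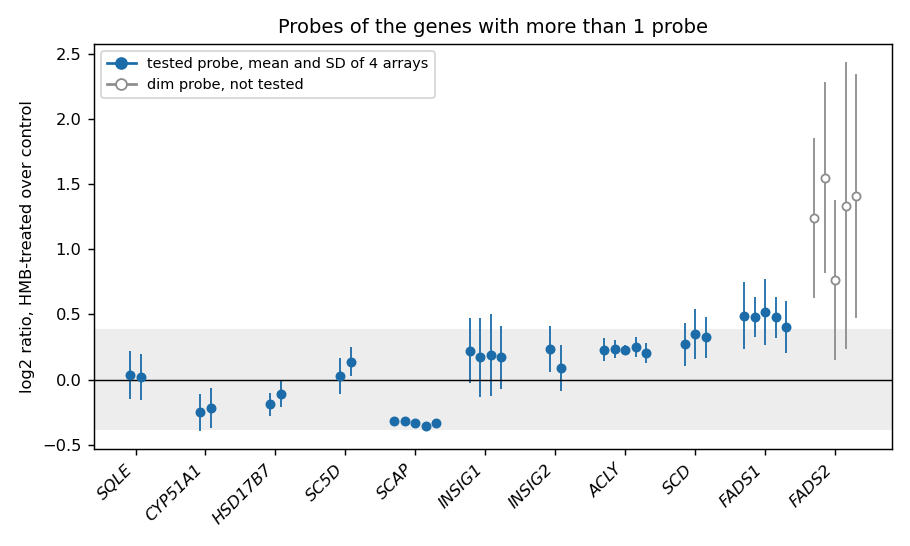
Log2 ratio (vertical axis) of each probe of the 11 member genes with more than 1 probe (horizontal axis), as mean and SD of 4 arrays. Filled symbols are tested probes, open gray symbols dim ones, and the gray band is the range within the FC threshold. The 5 probes of *FADS1* lie above the band and those of *SCAP* at its lower part, and the dim probes of *FADS2* have the widest error bars.

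The members tended to be low or high on the same arrays, where they share the same RNA and the same control. Replicate 2 gave the lowest ratio in 20 of the 28 genes (71.4%) and replicate 3 the highest in 15 (53.6%). Over all genes tested, these shares were 25.0% and 30.7%. Replicate 3 was the lowest in 0 of the 28, and replicate 2 the highest in 1. The genes lowest on replicate 2 included members on either side of 0, such as *MVK* and *ACSS2*, which fell, and *SQLE*, *SCD* and *FADS1*. Without replicate 2 the median of the 24 genes was 0.08, and the same number of members, 4, was called.

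The genes around the members were described by lists, from which 26 called genes are named. Many of these calls depended on the background correction, as 9 of the 26 were kept with normexp and 14 without background subtraction. With spike-in centering 18 were kept, with the methods' t-test 19 and with treat 11. Where both channels had to be above background on all 4 arrays, 19 were kept, and 25.9% of all genes were called. Of those lost, *NPC1* was tested and not called (−0.34). *CPT1B*, *GRAMD1B*, *MLXIPL*, *RXRA*, *SCD5* and *SP1* had no probe left to test. On the side of HMG-CoA that leads to ketone bodies and leucine breakdown, 2 of the 3 genes described were tested and 0 were called with limma (2 at an unadjusted p under 0.05, *ACAT1* and *AUH*, and 0 with treat or the methods' t-test). *ACAT1*, the mitochondrial thiolase, had 0.24 ± 0.08 (limma adjusted p = 0.0232, FC 1.18, and −0.32 with spike-in centering), and *AUH*, a hydratase of leucine breakdown, had −0.25 ± 0.18 (adjusted p = 0.0532). The genes that use isoprenoid units had 13 tested, with 1 higher and 2 lower (23.1% called, against 29.0% of all genes). All 3 calls were lost with normexp. *GGPS1*, which makes geranylgeranyl diphosphate, was higher at 0.56 ± 0.26 (0.26 with normexp and −0.14 with spike-in centering). *PGGT1B*, which attaches it to proteins, was lower at −0.75 ± 0.14 (−0.20 with normexp, and −0.27 and not called without background subtraction). *COQ2*, an enzyme of coenzyme Q synthesis, was lower at −0.57 ± 0.18 (−0.38 with normexp).

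Of 11 tested genes that process SREBP or assist it, 1 was higher and 2 were lower (27.3% called, against 29.0% of all genes). Of the 3 calls, the one of *VCP* was kept with normexp. The genes were *SP1*, a transcription factor that acts with SREBP (0.60 ± 0.17, but 0.05 on its brightest probe and −0.27 with spike-in centering), *VCP*, an ATPase of protein degradation (−0.61 ± 0.14), and *PAQR3*, a Golgi anchor of SCAP (−0.41 ± 0.20, and not called without replicate 1 or 3, at −0.34 and −0.37). Of 12 tested genes of sterol uptake and storage, 2 were higher and 3 lower (41.7% called, against 29.0% of all genes). The 3 lower calls were lost both with normexp and without background subtraction. *STARD5*, a sterol-binding protein, had the largest change at 1.09 ± 0.18. *CAV1*, the coat protein of caveolae, was higher at 0.52 ± 0.08 (−0.07 with spike-in centering). The lower genes were *GRAMD1B*, *OSBPL8* and *NPC1*. *GRAMD1B*, a sterol transporter, had −0.59 ± 0.13, with Cy5 above background on at most 2 arrays, and −0.08 with normexp. *OSBPL8*, of the oxysterol-binding protein family, had −0.47 ± 0.25, and −0.35 and not called without replicate 2. *NPC1*, which lets cholesterol out of lysosomes, had −0.38 ± 0.28. It was not called without replicate 1, 2 or 4, at −0.39, −0.25 and −0.40.

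Oxidized sterols switch on LXR, a receptor that drives genes of sterol export. Of 9 tested genes of this list, 4 were higher and 0 lower (44.4% called, against 29.0% of all genes), with a median of 0.26, which was −0.33 with spike-in centering (0.35 above all genes on that scale). With spike-in centering 2 were higher and 3 lower, and with normexp 1 was higher and 0 were lower. Of all 13964 genes, 501 were higher and 11007 lower with spike-in centering, and with normexp 12.9% of all genes were called. *CH25H*, which makes 25-hydroxycholesterol, a signal that holds SREBP back, had ratios of 1.71, 1.89, 2.06 and 1.28. It was higher on every array at 1.73 ± 0.33 (SD, n = 4), a 3.33-fold rise with a limma adjusted p of 1.59e-04, and it was called in all 18 settings. *NR1H3*, the gene of LXR alpha, had 0.82, 1.50, 1.22 and 1.11 and was higher at 1.16 ± 0.28 (adjusted p = 4.71e-04). It was called in 17 of 18 settings, the exception being normexp (0.34). *ABCG2*, an exporter, was higher at 0.75 ± 0.09 (0.34 with normexp and 0.10 with spike-in centering, without a call in either). Whether *ABCG2* takes part in sterol export in these cells was not tested. *RXRA*, the partner of LXR, had 0.72 ± 0.41 on its 1 tested probe of 5, with Cy3 above background on at most 2 arrays. Its ratio was −0.17 with spike-in centering and 0.20 with normexp, and 1.16 without the filter on dim probes.

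**Figure D4:**
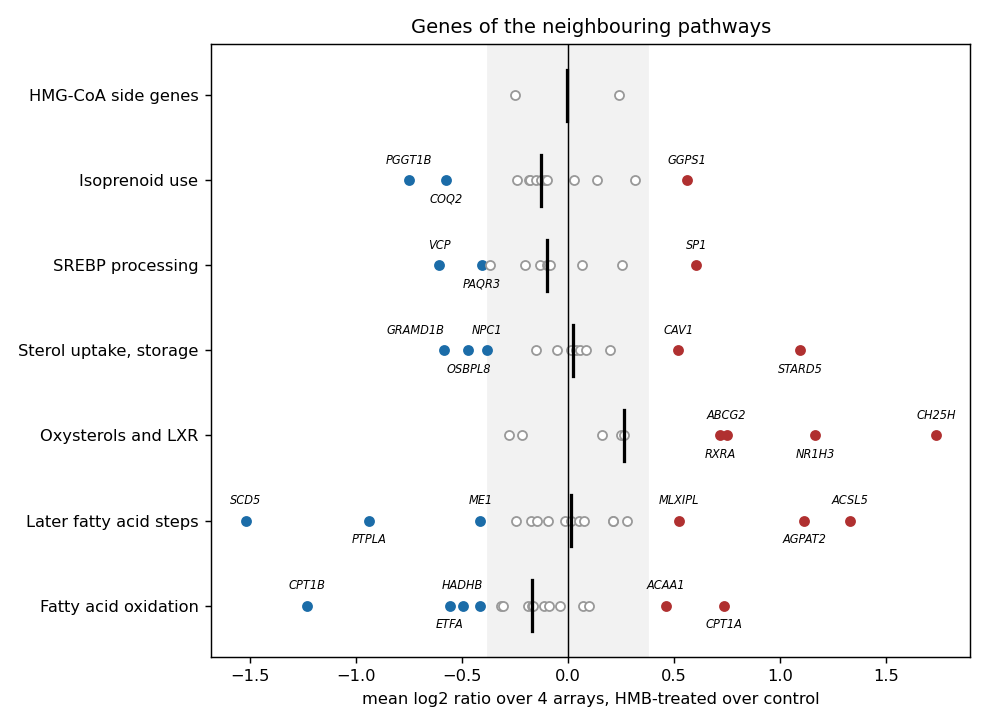
Mean log2 ratio over 4 arrays (horizontal axis) of the tested genes of 7 lists around the synthesis genes (vertical axis), with genes called higher in red, genes called lower in blue, other genes as open circles and the list median as a black bar. Gray marks the range within the FC threshold, and the called genes that the text names are labeled. *CH25H* lies at 1.73 on the right, and the positions of *SCD5*, *CPT1B* and *GRAMD1B* on the left are not exact, since their Cy5 was not above background on every array. Those of *MLXIPL* and *RXRA* are not exact either, since their Cy3 was not above background on every array.

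In the later steps of fatty acid use, 17 genes were tested, and 3 were higher and 3 lower (35.3% called, against 29.0% of all genes). *ACSL5*, which activates fatty acids with CoA, rose on every array to 1.33 ± 0.25, and *AGPAT2*, which builds them into phosphatidic acid, to 1.11 ± 0.21. Both were called in all 18 settings. *MLXIPL*, the sugar-sensing factor ChREBP that acts on fatty acid synthesis genes, was higher at 0.52 ± 0.23 (0.020 with normexp and −0.34 with spike-in centering). It entered the test through Cy5 alone, as Cy3 was above background on 3 arrays. It was not tested when both channels had to be above background. *SCD5*, the second stearoyl-CoA desaturase, was lower at −1.52 ± 0.32, with Cy5 above background on at most 2 arrays. Its ratio was −0.45 without background subtraction and −0.29 and not called with normexp. *PTPLA*, a dehydratase of chain elongation that is strong in muscle, was lower at −0.94 ± 0.14, and *ME1*, a source of NADPH for synthesis, at −0.41 ± 0.13 (−0.37 and not called without replicate 3, and −0.36 and not called with normexp).

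In fatty acid oxidation, 16 genes were tested, and 2 were higher and 4 lower (37.5% called, against 29.0% of all genes), with a median of −0.17. With normexp 2 were higher and 0 lower, where 12.9% of all genes were called. With spike-in centering 0 were higher and 14 lower, with a median of −0.78. On that scale 11007 of all 13964 genes were lower, and their median was −0.68. The carnitine transferases that admit fatty acids to mitochondria moved in opposite directions on the deposited scale. *CPT1A*, the form of liver and most other tissues, had 0.66, 0.81, 0.81 and 0.66 and was higher at 0.74 ± 0.08 (SD, n = 4), with a limma adjusted p of 3.44e-04. *CPT1B*, the muscle form, had −1.32, −1.59, −1.19 and −0.83 and was lower at −1.23 ± 0.32 (adjusted p = 5.35e-04), with Cy5 above background on 3 arrays. Its ratio was −0.45 without background subtraction and −0.34 and not called with normexp. With spike-in centering, *CPT1A* was at 0.10 and not called. *ACAA1*, a peroxisomal thiolase, was higher at 0.46 ± 0.11 (−0.08 with spike-in centering), and *ETFA* and *HADHB* of mitochondrial oxidation were lower at −0.56 ± 0.26 and −0.50 ± 0.15. Neither was called with normexp (−0.084 and −0.35) or without background subtraction (−0.22 and −0.37). Of the 7 muscle lineage markers tested, 5 were lower on the same arrays, and the part of these markers in the value of *CPT1B* was not tested.

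**Figure D5:**
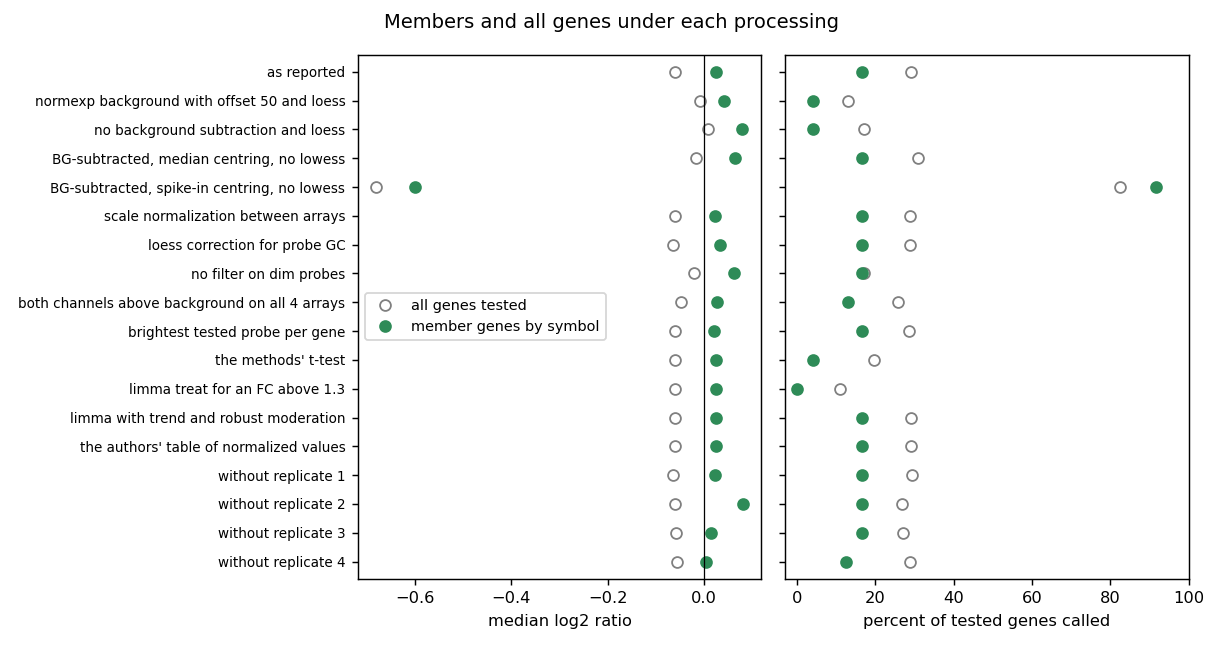
Left, median log2 ratio (horizontal axis) and right, percent of tested genes called (horizontal axis), for the member genes found by symbol (green) and all genes tested (open gray), under each processing (vertical axis). The median of the members lies 0.05 to 0.14 above that of all genes in every setting shown, and spike-in centering moves both. The other tests and the authors' table use the reported ratios, so they cannot change this gap. Both centerings of background-subtracted signals differ by a constant per array and share their gap.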

How the data were processed

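The arrays are Agilent horse arrays with 60-base probes annotated on EquCab1 per the file headers. The authors deposited scanner files of Feature Extraction, version 10.10.1.1 in the headers, with the intensity of each spot before and after background subtraction, linear and lowess normalization, and the log10 ratio of Cy5 over Cy3. Their table of normalized values holds the same ratios within 3.96e-05. A change of base turned the deposited log10 ratios into log2 ratios. Signals near background had been replaced by surrogates, so ratios of dim probes are not exact. Those of *SCD5*, *CPT1B*, *GRAMD1B* and *LSS*, not above background in Cy5 on every array, were smaller in size with normexp and without background subtraction. Control spots and 13 to 35 marked spots per array were left out, and 0 spots were saturated.

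The fit was limma 3.58.1 (lmFit with an intercept, eBayes) in R 4.3.3 over all 13969 gene names, with a minimum of 3 arrays. It was tested on simulated data. The control may be 1 RNA, and its own spread is then missing. Every member with a probe is named, and of each list the called genes with the 3 largest rises and falls, with the HMG-CoA side genes whatever their value. *RXRA* was named after its values were seen. Some genes of the lists are not reported here. They were left out of the lists, their counts and their medians, and stayed in the fit. The members and lists were chosen with earlier results of these data known. The alternatives were other background corrections and scalings, filters, tests, probe choices and leaving out each replicate. A planned search of promoters for motifs was not run, and promoters were not analysed here. The figures were drawn with matplotlib.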

Additional observations from a re-analysis of the deposited data

Results flagged for a closer look

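The 4 ratios of each of the 28 tested members were examined for an array far from the other 3, by the gap to the nearest value over the whole range. Dixon's critical value for 4 values is passed by chance in about 1 in 20 genes, and 3 of the 28 passed it. *PMVK* had −0.18 on replicate 2 and −0.06 to −0.05 on the others. *INSIG2* had −0.10 on replicate 2 and 0.22 to 0.26 on the others. *ELOVL5* had 0.56 on replicate 3 and 0.20 to 0.26 on the others. None of the 3 genes was called, and they lie on the arrays that gave the lowest and the highest ratios for most members.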

How the results depend on the processing

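Of 503 values of member genes under the 18 alternatives of the processing, 464 kept their call or stayed uncalled, and 18 lost a call without changing sign. The call of *FADS1* was also lost with spike-in centering, where its ratio changed sign. Among the values that stayed the same are those of the authors' table and the reference table names, which could not alter a call. With spike-in centering of background-subtracted signals, without lowess, 9 members were newly called in the direction they had (all lower) and 15 turned from above 0 to below. The latter were *FDPS* (−0.33), *ACLY* (−0.37) and *SCD* (−0.29), none of them called on either scale, and *ACAT2* (−0.39), *FDFT1* (−0.54), *SQLE* (−0.57), *NSDHL* (−0.39), *EBP* (−0.46), *SC5D* (−0.51), *DHCR7* (−0.46), *INSIG1* (−0.45), *INSIG2* (−0.47), *STARD4* (−0.73), *ELOVL5* (−0.49) and *FADS1* (−0.17). Of the other named genes, *MLXIPL* (−0.34), *ACAA1* (−0.080), *GGPS1* (−0.14), *SP1* (−0.27), *CAV1* (−0.066), *ACAT1* (−0.32) and *RXRA* (−0.17) turned. This scaling gave 22 members called, 22 of them lower, with a median of −0.60, and 11508 genes called, 501 higher and 11007 lower. The same signals centered on the bulk of the genes gave 4 members called and a median of all genes of −0.016, and from that scale the spike-in centering moves every ratio of an array by the same amount. Of 498 values of the named genes around the members, 69 lost a call without changing sign, and 6 changed sign and were no longer called.

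The count of members called was 1, lower, with normexp (1799 genes called in all, 1028 higher and 771 lower), 1, lower, without background subtraction (2391 in all, 905 lower), 1, lower, with the methods' t-test (1156 genes higher) and 0, with 0 lower, with treat (1538 in all, 827 higher and 711 lower). The single member kept was *TM7SF2*. With both channels above background, 3 of 23 members were called (*LSS* dropped out), against 25.9% of all genes. Without the filter on dim probes, 2 members were called higher (*ABCA1* and *FADS2*), and 1 was higher once the members found by description were added, a choice made after seeing the data. The cause of these changes was not tested. With each replicate left out in turn, 3 to 4 members and 3751 to 4081 genes were called. Scale normalization, the GC correction, moderation with trend and robust, the brightest probe and the authors' table each gave 4 members, and names from the reference table added 0 probes. Dim signal limits *HMGCS1*, *SREBF1*, *SREBF2*, *ABCA1*, *ACACA* and *FADS2*, which have no test. No paired analysis was possible because each array already holds both RNAs as 1 ratio and all arrays form 1 group.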
